A study of Mus musculus with 20 samples.

Results

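The transport and sensing of short-chain fatty acids in the mouse distal colon (DC) was followed through 9 genes, taken by name from the 26619 genes in the count table. They were 5 carriers (Slc16a1, Slc16a3, Slc16a4, Slc16a7 and Slc5a8), the carrier partner Bsg and 3 receptors (Ffar2, Ffar3 and Hcar2). All 9 passed the filter on low counts, as did 17893 genes in all. The tissue came from C57BL/6 mice that received the Total Western Diet (TWD), modelled on American nutrient intake, from 3 weeks of age. After 6 weeks they continued on TWD holding 0, 2, 5 or 10% resistant potato starch (RPS, named raw potato starch in the labels) for 3 weeks more (n = 5 mice per diet). All mice ate TWD throughout, so there was no group on a standard diet. Each library was polyadenylated RNA from the DC of 1 mouse, with 18.4 to 35 megacounts. Depth differed between diets, with 32.8 ± 1.35 megacounts (SD, n = 5) at 0% RPS and 24.3 ± 3.42 megacounts at 10% RPS.

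Bacteria ferment starch that escapes digestion to acetate, propionate and butyrate, and butyrate is a main fuel of colonocytes. Cells take up these acids through proton-coupled monocarboxylate transporters of the SLC16 family and the sodium-coupled carrier SLC5A8. SLC16A1 and SLC16A3 need the membrane glycoprotein basigin, encoded by Bsg, to reach the cell surface. The receptors FFAR2 and FFAR3 sense short-chain fatty acids in endocrine, immune and nerve cells, and HCAR2 senses butyrate, ketone bodies and niacin. The question for these genes was whether their mRNA moved with the RPS content of the diet.

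The diet group of each mouse was taken from the description label. For mouse RS10_717 this label gives 5% and the treatment label 2%, for RS10_725 they give 10% and 5%, and for RS10_748 they give 2% and 10%. The pieces held epithelium (10100 to 16100 CPM, counts per megacount of the library, summed over 6 markers) and muscle wall (5120 to 11100 CPM over 5 smooth muscle markers). Squamous markers summed to at most 7.84 CPM. Pancreatic transcripts, over 6 markers, summed to 4560 CPM in mouse RS10_721 (5% RPS), to 408 CPM in RS10_784 (10% RPS) and to at most 12.1 CPM in the other mice. In pieces of whole tissue, fewer cells of a type and less RNA per cell cannot be told apart.

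The carriers and Bsg spanned a wide range of levels, and the promoters of 3 carriers that differ in level are shown. Slc16a1 and Slc5a8, the abundant carriers, and Slc16a4, a scarcer relative of Slc16a1, are each given by the 250 bases upstream of the start of the canonical transcript, 5′ to 3′, read from GRCm39 with GENCODE vM39. Capitals mark CG dinucleotides, which read the same on both strands. The windows are chr3:104545561-104545810 on the plus strand for Slc16a1, chr10:88721516-88721765 on the plus strand for Slc5a8 and chr3:107198282-107198531 on the plus strand for Slc16a4.
Slc16a1: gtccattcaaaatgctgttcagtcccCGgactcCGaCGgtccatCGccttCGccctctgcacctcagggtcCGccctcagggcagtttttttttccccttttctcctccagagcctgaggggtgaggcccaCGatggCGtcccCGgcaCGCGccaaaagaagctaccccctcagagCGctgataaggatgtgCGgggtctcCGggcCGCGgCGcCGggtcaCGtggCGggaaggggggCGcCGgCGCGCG
Slc5a8: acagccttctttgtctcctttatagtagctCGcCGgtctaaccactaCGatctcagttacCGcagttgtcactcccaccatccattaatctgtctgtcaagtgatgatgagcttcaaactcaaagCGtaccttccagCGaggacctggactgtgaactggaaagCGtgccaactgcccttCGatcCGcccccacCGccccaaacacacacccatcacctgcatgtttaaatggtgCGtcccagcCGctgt
Slc16a4: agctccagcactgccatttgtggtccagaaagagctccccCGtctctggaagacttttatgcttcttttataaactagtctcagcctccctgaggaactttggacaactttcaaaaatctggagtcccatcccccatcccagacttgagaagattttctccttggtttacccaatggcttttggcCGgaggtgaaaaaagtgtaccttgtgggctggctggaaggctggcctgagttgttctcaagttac
The window of Slc16a1 held 25 CG dinucleotides, that of Slc5a8 held 12 and that of Slc16a4 held 2. The median over the 15415 tested protein-coding genes was 11, and 56.6% of those windows held at least 10. The letters TATAAA, searched on both strands, occurred in the windows of Slc5a8 and Slc16a4 and in 8.05% of all windows. Bsg, the most abundant of the 9 genes, held 12 CG dinucleotides, Slc16a3 held 8 and Slc16a7 held 4. Among the receptors, Hcar2 held 7, Ffar3 held 4 and Ffar2 held 3. These counts describe the windows, and no binding or methylation was measured.

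Bsg, Slc16a1 and Slc5a8 dominated the group in every mouse. Levels are CPM after scaling by trimmed mean of M-values (TMM), and levels of different genes are compared only per kilobase (kb) of the canonical transcript. Bsg reached 272 ± 21.1 CPM per kb (SD, n = 20 mice). Slc16a1, the carrier MCT1 that moves butyrate and lactate, reached 67.5 ± 7.95 CPM per kb. Slc5a8, which draws acids across the luminal membrane with sodium, reached 52.4 ± 7.52 CPM per kb. Bsg was 4.04 times Slc16a1, and Slc16a1 was 1.29 times Slc5a8, with the same order in 20 of 20 mice for both steps. The next gene, Slc16a4, lay 11.3 times below Slc5a8.

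The other SLC16 carriers of the group were scarce. Slc16a4 (MCT5), whose substrates are less well defined, reached 4.65 ± 0.537 CPM per kb. Slc16a3 (MCT4), best known for lactate export from glycolytic cells, reached 2.57 ± 0.583 CPM per kb. Slc16a7 (MCT2), a high-affinity pyruvate and lactate carrier, reached 0.616 ± 0.049 CPM per kb. Slc16a1 thus exceeded them by 14.5, 26.2 and 109 times, in that order. Slc16a4 exceeded Slc16a3 in 20 of 20 mice.

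The receptors lay in the low part of the range, as did Slc16a7. Ffar2 (GPR43) reached 1.47 ± 0.609 CPM per kb, Ffar3 (GPR41) 0.796 ± 0.251 CPM per kb and Hcar2 (GPR109A) 0.469 ± 0.164 CPM per kb. Ffar2 was above Ffar3 in 17 of 20 mice, and Ffar3 was above Slc16a7 in 14 of 20, so the latter 2 genes overlapped broadly. All 3 receptors were counted in each library, with 26 to 190 counts for Ffar2, 21 to 65 for Ffar3 and 8 to 36 for Hcar2. When length was taken as the merged exons of all transcripts, a choice made after seeing the data, Slc16a1 exceeded Slc5a8 by 1.12 times in 17 of 20 mice, and Hcar2 (0.469 CPM per kb) and Slc16a7 (0.455 CPM per kb) changed places.

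**Figure D1:**
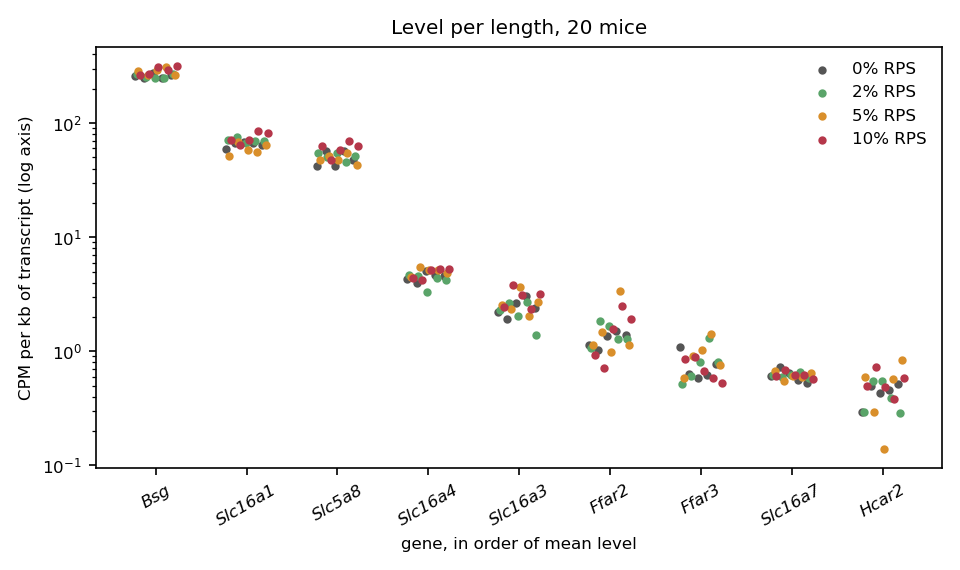
Level of each gene per kb of canonical transcript (log axis), 1 point per mouse, coloured by RPS level. Bsg, Slc16a1 and Slc5a8 lie above 41 CPM per kb in all 20 mice, and the other 6 genes lie below 6 CPM per kb.

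The genes sit on 5 chromosomes of GRCm39. Slc16a1 (chr3:104545811-104565780) and Slc16a4 (chr3:107198532-107219864) lie on chromosome 3, both on the plus strand. Chromosome 10 carries Slc5a8 (chr10:88721766-88765377, plus), Bsg (chr10:79540143-79547821, plus) and Slc16a7 (chr10:125055129-125225463, minus). Ffar2 (chr7:30517773-30536075) and Ffar3 (chr7:30553755-30555625) lie near each other on the minus strand of chromosome 7. Slc16a3 (chr11:120838846-120851694, plus) shares 4529 exon bases with Csnk1d and 452 with Ccdc57, both on the opposite strand. Slc16a7 shares 733 exon bases with the predicted gene Gm47862, and Slc5a8 shares 199 with the long non-coding RNA Gm66637. The kit kept strand, but the strand setting of the counting is not given in the sources used here. Reads of these 3 carriers and of their opposite-strand neighbours may therefore have been counted together. Hcar2 (chr5:124001633-124003562, minus) is a gene of 1 exon.

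No member passed the test at any RPS level. A call required a change of at least 1.5-fold and an adjusted p no higher than 0.05 in the quasi-likelihood test of edgeR with Benjamini-Hochberg adjustment over the 17893 genes. The count was 0 of 9 at 10% RPS, where 7 of all tested genes (0.0391%) were called, 0 of 9 at 5% RPS, where 0% were called, and 0 of 9 at 2% RPS, where 0% were called. At an unadjusted p under 0.05, 3 of 9 stood out at 10% RPS (Slc5a8, Bsg and Slc16a1) against 15.2% of all genes, 0 of 9 at 5% RPS against 9.19%, and 0 of 9 at 2% RPS against 1.41%. DESeq2 also called 0 of 9 at each level, though it gave Hcar2 no adjusted p at 5% RPS. Of all genes with an adjusted p, it called 211 of 16886, 29 of 14896 and 1 of 25901 at 10, 5 and 2% RPS. At an unadjusted p under 0.05 it had 3, 1 and 0 of 9 in the same order. The share of all genes at that p was not counted for DESeq2. No member separated the mice of an RPS diet from the 0% RPS mice without overlap, as did 2.28% of all genes at 10%, 1.03% at 5% and 0.24% at 2% RPS. The median log2 fold change of the 9 genes was 0.19 at 10%, 0.13 at 5% and 0 at 2% RPS, beside -0.01, -0.01 and 0 over all tested genes.

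How large a change the data leave room for differed between genes. For 5 of the 9 genes (Slc16a1, Slc16a4, Slc16a7, Slc5a8 and Bsg), the 95% intervals at all 3 RPS levels stayed within 1.5-fold of the 0% RPS level. Their widest bounds were 0.806-fold, for Slc16a4, and 1.43-fold, for Slc5a8. For the other 4 genes a 1.5-fold change lay inside an interval. The upper bound reached 1.58-fold for Slc16a3, 2.03-fold for Ffar2, 1.86-fold for Ffar3 and 1.96-fold for Hcar2, and Hcar2 also had the lowest bound, 0.583-fold. These intervals were not adjusted for the number of genes.

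**Figure D2:**
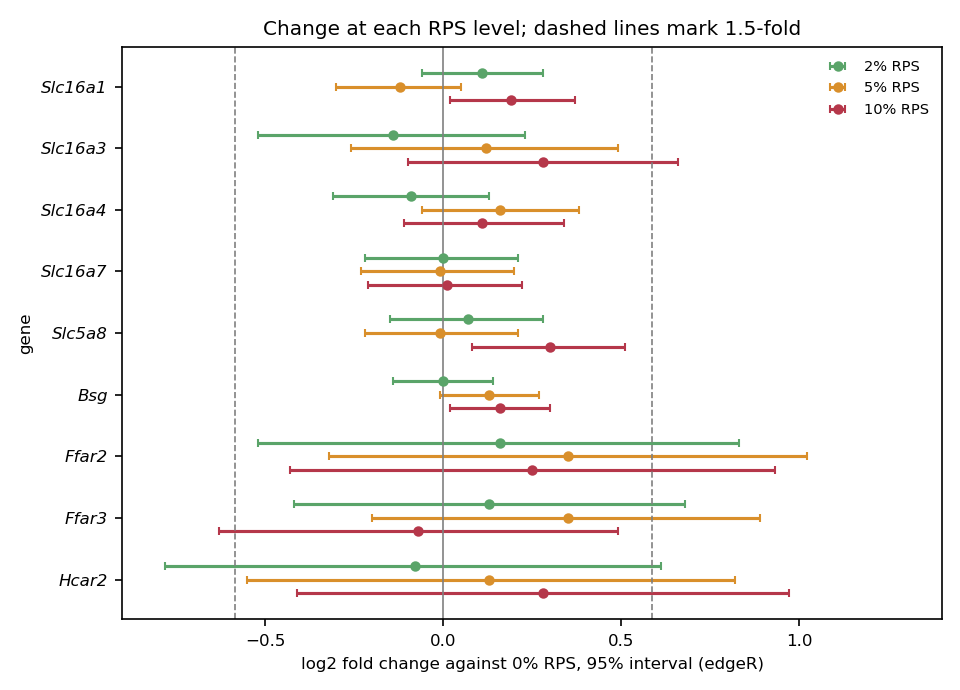
Log2 fold change of each gene against 0% RPS at 2, 5 and 10% RPS with its 95% interval from edgeR (n = 5 mice per diet). Dashed lines mark 1.5-fold, and only the intervals of Slc16a3, Ffar2, Ffar3 and Hcar2 cross them.

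Slc5a8 had the lowest adjusted p of the 9 at 10% RPS. At 0% RPS its level was 226, 309, 228, 311 and 256 CPM in the 5 mice. At 10% RPS it was 345, 257, 318, 374 and 341 CPM. Of the 5 mice on 10% RPS, 4 lay above all mice on 0% RPS, and RS10_727, the least deeply sequenced library, lay inside their range. The mean was 266 ± 42 CPM at 0% RPS, 279 ± 20.6 CPM at 2% RPS, 265 ± 24.1 CPM at 5% RPS and 327 ± 44.1 CPM at 10% RPS. The log2 fold change at 10% RPS was 0.30 ± 0.10 (SE; adjusted p = 0.183 in edgeR). Without RS10_727 it was 0.38 with an adjusted p of 0.0487 in edgeR, still under 1.5-fold. Over all mice left out 1 at a time it ran from 0.24 to 0.38, with an adjusted p of up to 0.398. At 5% RPS the log2 fold change was -0.01 (95% interval -0.22 to 0.21), and at 2% RPS 0.07 (-0.15 to 0.28).

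Bsg showed the same direction at 5 and 10% RPS. At 0% RPS its level was 472, 448, 498, 449 and 474 CPM, and at 2% RPS 489, 456, 452, 450 and 491 CPM. At 5% RPS it was 518, 482, 528, 559 and 474 CPM, and at 10% RPS 475, 487, 556, 524 and 571 CPM. The 0 and 2% RPS mice thus covered the same narrow range, while 3 of 5 mice at both 5 and 10% RPS lay above every 0% RPS mouse. The log2 fold change was 0.13 ± 0.07 at 5% RPS (adjusted p = 0.571) and 0.16 ± 0.07 at 10% RPS (adjusted p = 0.263). Without RS10_784, which had the highest level and held pancreatic transcripts, the log2 fold change at 10% RPS was 0.13.

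Slc16a1 did not follow the order of the doses. Its level was 271, 307, 316, 310 and 297 CPM at 0% RPS and 326, 345, 309, 321 and 318 CPM at 2% RPS. It was 236, 316, 270, 260 and 294 CPM at 5% RPS and 326, 294, 326, 394 and 375 CPM at 10% RPS. Mice on 2 and 10% RPS thus lay mostly above the 0% RPS range, with 4 of 5 above it in each group, and 3 of 5 mice on 5% RPS lay below it. The log2 fold changes were 0.11 ± 0.08, -0.12 ± 0.08 and 0.19 ± 0.08 at 2, 5 and 10% RPS, with adjusted p of 1, 0.664 and 0.275. In the test of any diet difference with edgeR, Slc16a1 had the lowest adjusted p of the 9, 0.254. By that test 0 of 9 members passed, beside 0.0727% of all genes. At an unadjusted p under 0.05 edgeR had 3 of 9 (Slc16a1, Slc5a8 and Bsg), against 10.6% of all genes. DESeq2 had the same count, and its share of all genes was not counted.

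A straight-line trend over RPS percent was the comparison in which the members came nearest to the threshold. The slope, in log2 units per 10% RPS, was 0.18 for Bsg (95% interval 0.05 to 0.31; adjusted p = 0.115), 0.27 for Slc5a8 (0.07 to 0.48; adjusted p = 0.128) and 0.35 for Slc16a3 (0.01 to 0.70; adjusted p = 0.246). None of the 9 passed in edgeR, where 2.1% of all genes did, and 3 of 9 had an unadjusted p under 0.05 against 19.1% of all genes. In DESeq2 Bsg passed, with a slope of 0.19 and an adjusted p of 0.0323, as did 973 of all 17370 genes with an adjusted p. Without RS10_727, Slc5a8 (slope 0.34, adjusted p = 0.0398) and Bsg (slope 0.21, adjusted p = 0.0474) passed in edgeR. The count over all genes then rose from 375 to 1148 of 18096 tested. Over all mice left out 1 at a time, the adjusted p in edgeR reached 0.293 for Slc5a8 and 0.267 for Bsg. By the description label, markers of surface colonocytes followed the RPS level. Their summed level over 7 genes was 3270 to 4110 CPM at 0% RPS, 3310 to 4020 CPM at 2%, 3730 to 5620 CPM at 5% and 5260 to 6180 CPM at 10% RPS, and 5 of the 7 passed the trend test of edgeR upwards. At 10% RPS edgeR called 1 of the 7, Car4, beside 7 of 17893 genes. DESeq2 called 3 (Car4, Aqp8 and Krt20), beside 211 of 16886 genes. By the treatment label, 0 of 17893 genes passed the trend test of edgeR and 0 were called at 10% RPS. No marker of the surface colonocyte list was at 0 in any diet group. The part of these cells in the values of Slc5a8, Bsg and Slc16a1 was not tested.

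**Figure D3:**
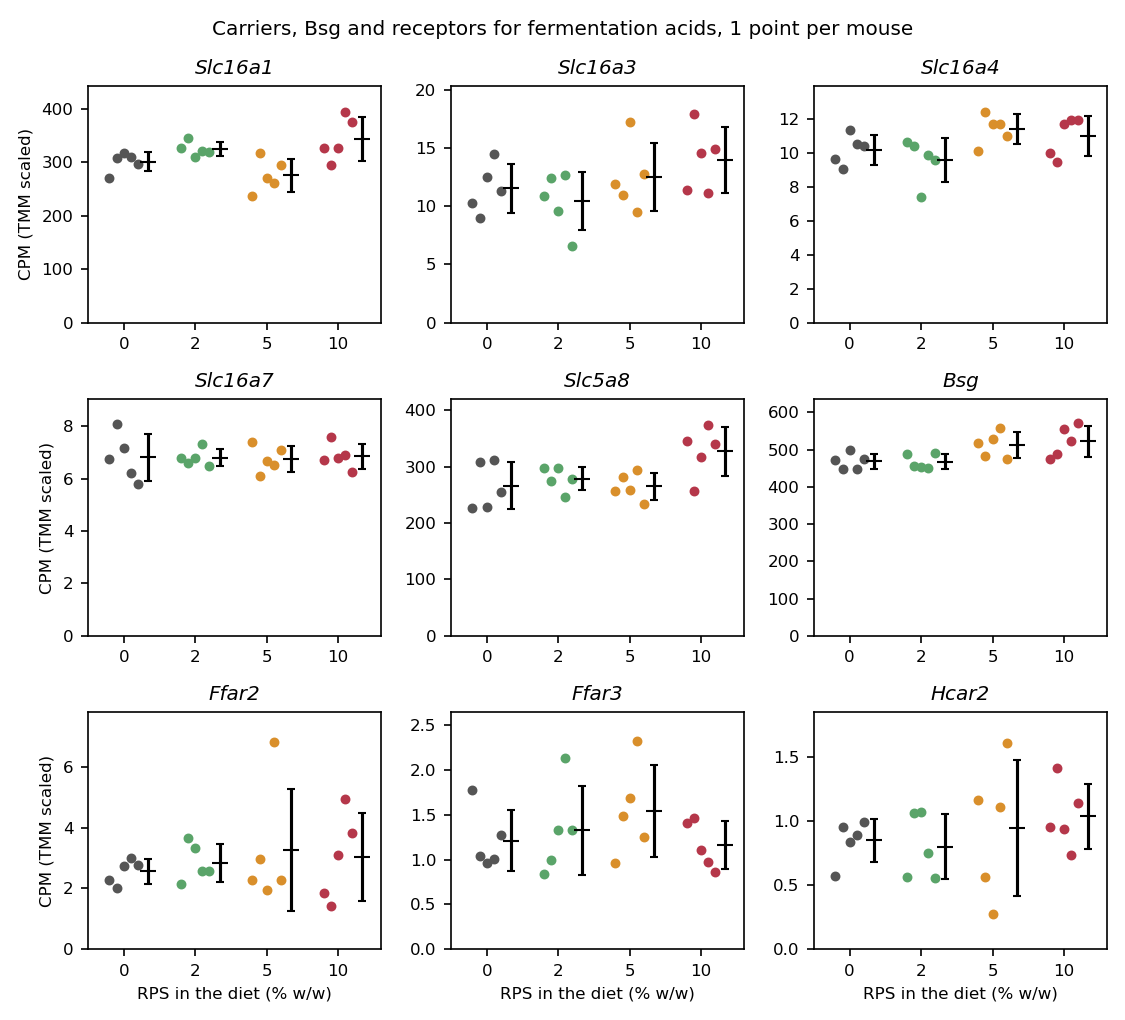
Level of each gene in CPM (TMM scaled) against RPS in the diet, 1 point per mouse, with the mean and SD of 5 mice as black bars and each axis starting at 0. No gene separates an RPS diet from 0% RPS without overlap, and the Ffar2 value of 6.81 CPM at 5% RPS stands apart.

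The scarce SLC16 carriers were not called at any level. Slc16a3, which had the steepest slope of the 9 genes, ranged from 9.01 to 14.5 CPM at 0% RPS and from 11.1 to 17.9 CPM at 10% RPS, with 3 of 5 mice on 10% RPS above the 0% RPS range. Its log2 fold change at 10% RPS was 0.28 ± 0.18 (adjusted p = 0.483). Slc16a4 averaged 10.2 ± 0.884 CPM at 0% RPS, 9.56 ± 1.27 CPM at 2%, 11.4 ± 0.879 CPM at 5% and 11 ± 1.17 CPM at 10% RPS. Slc16a7 had diet means between 6.75 and 6.86 CPM, and every mouse lay between 5.81 and 8.1 CPM. Its log2 fold changes lay between -0.01 and 0.01, with the 95% interval at 10% RPS from -0.21 to 0.22.

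Ffar2 varied more within diets than between them. It was 2.27, 2.02, 2.73, 3 and 2.77 CPM at 0% RPS and 2.13, 3.67, 3.32, 2.57 and 2.56 CPM at 2% RPS. It was 2.28, 2.98, 1.96, 6.81 and 2.28 CPM at 5% RPS and 1.86, 1.41, 3.11, 4.93 and 3.84 CPM at 10% RPS. At 10% RPS 3 mice lay above the 0% RPS range and the other 2 below it. The log2 fold changes were 0.16 ± 0.32, 0.35 ± 0.32 and 0.25 ± 0.33 at 2, 5 and 10% RPS (adjusted p of 1, 0.763 and 0.769). The value of 6.81 CPM came from RS10_721, the mouse with 4560 CPM of pancreatic transcripts, and without it the log2 fold change at 5% RPS was -0.11. The Pearson correlation of Ffar2 with the pancreatic list over 20 mice was 0.60 (permutation p = 0.00972, adjusted p = 0.132), the Spearman rho was 0.22 (permutation p = 0.344, adjusted p = 0.885), and r was -0.06 without the 2 mice farthest from the median of the list. The Pearson relation thus rested on those mice.

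Ffar3 and Hcar2 showed no direction that held across levels. Ffar3 was 1.78, 1.04, 0.962, 1.01 and 1.27 CPM at 0% RPS and 1.41, 1.47, 1.11, 0.97 and 0.862 CPM at 10% RPS. Its highest value, 2.33 CPM, was that of RS10_721 at 5% RPS. The log2 fold changes were 0.13 ± 0.27, 0.35 ± 0.26 and -0.07 ± 0.27 at 2, 5 and 10% RPS (adjusted p of 1, 0.707 and 0.932). Hcar2 was 0.567, 0.949, 0.838, 0.892 and 0.994 CPM at 0% RPS and 0.95, 1.41, 0.938, 0.737 and 1.14 CPM at 10% RPS. The widest spread was at 5% RPS, from 0.27 to 1.61 CPM. Its log2 fold changes were -0.08 ± 0.33, 0.13 ± 0.33 and 0.28 ± 0.33 at 2, 5 and 10% RPS (adjusted p of 1, 0.924 and 0.746). The neutrophil list, a cell type that carries Ffar2, summed to 134 to 413 CPM, of which Ly6g made up 130 to 410 CPM. The defining markers S100a8, S100a9 and Cxcr2 were at or near 0, with at most 0.235, 0.198 and 0.114 CPM, and 3 of the 6 markers passed the filter.

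The spread between mice set these limits more than counting did for most genes. Over the 20 mice the coefficient of variation was 7.76% for Bsg, 11.8% for Slc16a1 and 14.3% for Slc5a8, where counting alone would give 0.848, 1.07 and 1.12%. For Ffar2 it was 41.5% against 11% from counting, and for Hcar2 35% against 20%. Slc16a7 was the exception, since its 7.95% was close to the 7.21% from counting. Within diets the SD of log2 CPM was 0.12 for Slc16a7, beside a median of 0.24 over 1950 genes of like level. It was 0.54 for Ffar2, beside 0.31 over 1656 genes of like level, and 0.32 for Slc16a3, beside 0.20 over 2389.

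Whether the genes varied together was examined over the 20 mice. Of 36 pairs, 0 passed after adjustment of the Pearson permutation p over the pairs. The strongest was Bsg with Slc16a4 (r = 0.64, permutation p = 0.00204, adjusted p = 0.0734; rho = 0.65, permutation p = 0.00289, adjusted p = 0.104), with r = 0.58 without the 2 mice farthest from the median and r = 0.48 after diet means were removed. The pair Slc16a1 and Slc5a8, the abundant carriers, followed with r = 0.59 (permutation p = 0.00619, adjusted p = 0.111; rho = 0.56, permutation p = 0.0126, adjusted p = 0.226) and r = 0.41 on both checks. Bsg and Slc16a1, chaperone and carrier, had r = 0 (permutation p = 0.985, adjusted p = 0.985; rho = 0.08, permutation p = 0.732, adjusted p = 0.792). Left out 1 at a time, RS10_707, RS10_717 and RS10_718 each brought the pair of Bsg and Slc16a4 past the threshold (adjusted p of 0.0396, 0.0306 and 0.0252). Without RS10_717 Slc16a1 and Ffar3 also passed (r = -0.68, adjusted p = 0.0306).

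Bsg moved with epithelial markers from mouse to mouse. Of 144 pairs of a member with 1 of 16 cell type marker lists, 2 passed after adjustment of the Pearson permutation p. Bsg and the surface colonocyte list had r = 0.80 (permutation p = 3e-05, adjusted p = 0.00432) and rho = 0.78 (permutation p = 5e-05, adjusted p = 0.0072). Without the 2 mice farthest from the median r was 0.71, and within the diets it was 0.72, -0.13, 0.79 and 0.75 at 0, 2, 5 and 10% RPS (n = 5 each). After diet means were removed r was 0.64, with an adjusted p of 0.0939 by permutation. Bsg and the general epithelium list had r = 0.73 (permutation p = 0.00015, adjusted p = 0.0108) and rho = 0.65 (permutation p = 0.00233, adjusted p = 0.0671), with r = 0.63 without the farthest 2 mice. Within the diets that r was 0.44, -0.35, 0.72 and 0.71 in the same order. After diet means were removed it was 0.54, with an adjusted p of 0.161 by permutation. The epithelium score weighs its genes equally in log2 CPM, and Cdx2 ranged most widely for its level (5.77 to 84.4 CPM). Epcam ran from 1440 to 1780 CPM and Krt19 from 2420 to 4550 CPM. The part of Cdx2 in this r was not tested. The epithelium pair no longer passed without RS10_701 (adjusted p = 0.0504), RS10_721 (0.0792) or RS10_784 (0.106), whereas the surface colonocyte pair passed without any 1 of these mice (adjusted p of 0.0144, 0.0144 and 0.0288). By rank, Bsg and Slc16a4 ran opposite to the macrophage list (rho of -0.72 and -0.73, permutation p of 0.00047 and 0.00042, adjusted p of 0.0226 for both), where r was -0.57 (permutation p = 0.00752, adjusted p = 0.12) and -0.51 (permutation p = 0.026, adjusted p = 0.234).

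For the abundant carriers the relation to the surface colonocyte list did not pass. For Slc5a8 r was 0.44 (permutation p = 0.0555, adjusted p = 0.307; rho = 0.41, permutation p = 0.0771) and for Slc16a1 it was 0.13 (permutation p = 0.598, adjusted p = 0.969; rho = 0.25, permutation p = 0.284). The highest r of Slc5a8 was with enteroendocrine markers (r = 0.65, permutation p = 0.00207, adjusted p = 0.0708; rho = 0.63, permutation p = 0.00328). Within the diets it was 0.34, 0.49, 0.81 and 0.88, and without RS10_707 the pair passed (r = 0.75, adjusted p = 0.0288). The genes of the enteroendocrine list did not share a direction at 10% RPS. Log2 fold changes in edgeR were -0.27 for Chga and -0.14 for Chgb, and 0.23 to 0.67 for the rest, and none was called. Whether Bsg differs from the carriers in its relation to the marker lists was not tested. All of these values share 1 library per mouse, so differences in depth and in the make-up of the piece enter both sides.

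**Figure D4:**
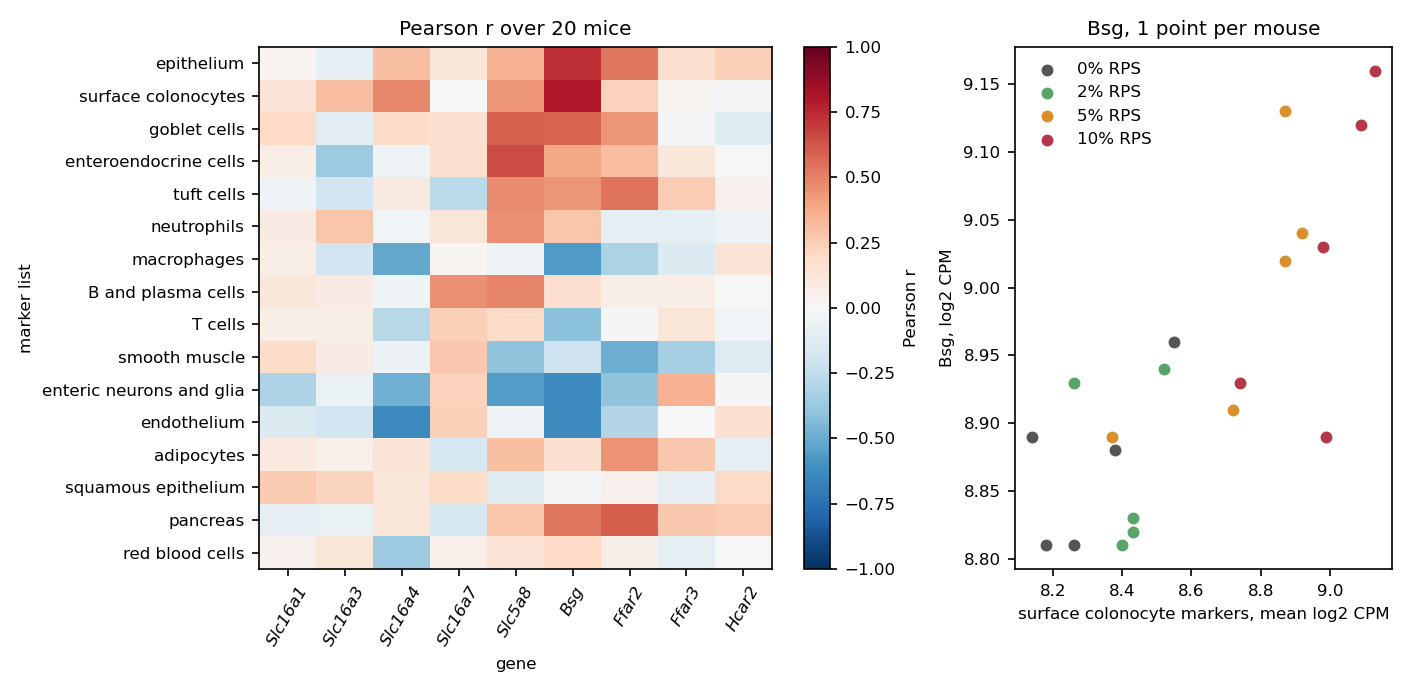
Left, Pearson r over 20 mice between log2 CPM of each gene and the mean log2 CPM of each marker list. Right, Bsg against the surface colonocyte list, 1 point per mouse coloured by diet, where r was 0.80 over all mice.

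The genes whose log2 CPM was most like that of each member over the 20 mice were listed as a description among 15411 protein-coding genes. For Bsg they were Arfip1 (r = 0.91), Mydgf (0.89) and St14 (0.87), an epithelial membrane protease. After diet means were removed these were 0.83, 0.85 and 0.76. For Slc5a8 they were Btnl1 (0.86), a butyrophilin-like gene of gut epithelium, Lclat1 (0.85) and Syap1 (0.85). For Slc16a1 they were Rmnd5a (0.83), Itih5 (0.81) and Impa1 (0.79). For Slc16a4 they were Cbr1 (0.83), Yif1b (0.81) and Klc4 (0.80). For Slc16a3, Slc16a7, Ffar2 and Ffar3 the nearest genes had r of at most 0.78. Slc16a3 was nearest to Pfkp, which encodes a phosphofructokinase of glycolysis, Vps39 and Pik3r4 (0.74 each). Slc16a7 was nearest to Cd209g (0.74), Tcp11 (0.74) and Mamld1 (0.73), Ffar2 to Erp27 (0.78), Celf5 (0.77) and Tmem164 (0.75), and Ffar3 to Zbtb46 (0.75), Clgn (0.67) and Jmjd4 (0.65). Hcar2 was left out, since its mean was under 1 CPM.

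The genes around the members in the same pathway gave a similar picture. Of the other SLC16 carriers 8 of 10 passed the filter, and 0 of 8 were called at any RPS level or in the trend with edgeR. Slc16a5 (61.6 ± 14.6 CPM, SD, n = 20) and Slc16a12 (9.6 ± 2.54 CPM) had the highest CPM, without regard to length. Per kb of canonical transcript Slc16a5 had 28.5 CPM, above the members Slc16a4, Slc16a3 and Slc16a7. Of the relatives of Slc5a8 and the partners of carriers, 0 of 4 tested genes were called, and Nptn, the neuroplastin relative of basigin, had 166 ± 13.5 CPM. Slc5a6, the sodium-dependent vitamin carrier, had 37.2 ± 9.42 CPM. It was singled out after its values were seen, with a log2 fold change of -0.61 ± 0.18 at 10% RPS (adjusted p = 0.122 in edgeR, called by DESeq2 with an adjusted p of 0.0364). The identifier of Slc5a12 was not among the 26619 genes counted, so Slc5a12 was not tested.

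Other receptors of fatty and hydroxy acids, 6 of 7 tested, had 0 calls, with Gpr35 at 39.2 ± 4.68 CPM and the long-chain fatty acid receptor Ffar4 at 13.1 ± 2.92 CPM. Of 11 genes of G protein and arrestin signalling, 0 were called in edgeR, and by CPM, not per length, Plcb3 (511 ± 61 CPM) and Gna11 (260 ± 28.2 CPM) came first. Of 11 enzymes of short-chain acids, ketone bodies and lactate, 0 were called in edgeR. Ldha, which makes lactate, had 1190 ± 141 CPM, and Oxct1, which burns ketone bodies, had 332 ± 23.1 CPM. At an unadjusted p under 0.05 at 10% RPS the lists had 1 of 8, 1 of 4, 0 of 6, 2 of 11 and 3 of 11 genes, in the order given, beside 15.2% of all tested genes. By DESeq2, Slc5a6 was the only call of these 5 lists at 10% RPS, beside 211 of 16886 genes. Slc5a6, Gnai3 and Ldhd passed in its trend test, beside 973 of 17370 genes. The median log2 fold change at 10% RPS was 0.03, 0.01, 0.17, -0.01 and -0.12 in the same order, beside -0.01 over all tested genes.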

How the data were processed

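The authors trimmed low-quality reads, mapped them to GRCm39 in CLC Genomics Workbench and deposited raw counts per gene for each mouse. The annotation release and the handling of shared reads are not given in the sources used here. Of 26619 identifiers, 26338 had a GENCODE vM39 symbol. In R 4.3.3, edgeR 4.0.16 (filterByExpr at a minimum count of 10, TMM, robust quasi-likelihood fit over the 4 diets) was the main test, and DESeq2 1.42.0, which the authors used, the first alternative. Log2 CPM used a prior count of 2. Correlation p-values were two-sided, from 100000 permutations in Python 3.11.15 with numpy 2.4.6, adjusted by Benjamini-Hochberg. Where a mouse was left out fewer permutations were used, so those adjusted p-values are coarser and have a higher floor. Other alternatives covered scaling, the filter, the treatment label, thinning of libraries, the clock gene Dbp as a covariate, the prior count and each mouse left out. The edgeR test and the correlations were tested on simulated data. All 9 members are named whatever their values, as are the 3 genes most like each member and, of lists without a call, the 2 genes with the highest mean CPM (not per length). Members and lists were chosen with earlier results of these data known. No 2 libraries of a diet looked like repeats (chi-square per degree of freedom of at least 9.1). Mice are the replicates. No paired analysis was possible because each mouse number occurs in 1 diet only.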

Additional observations from a re-analysis of the deposited data

Results flagged for a closer look

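Ffar2 in mouse RS10_721 on 5% RPS had 6.81 CPM, and the next mouse of that diet had 2.98 CPM. The gap was 0.79 of the range of the 5 mice, above Dixon's 95% critical value of 0.71. It was the only such value in 36 tests of a gene in a diet, where chance gives about 1.8. The same library held 4560 CPM of pancreatic transcripts, and their part in this value was not tested.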

How the results depend on the processing

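Counts of members called stayed at 0 of 9 at each RPS level and for any diet difference under all settings, while the trend had 1 with DESeq2 (Bsg, 0.19) and 0 to 2 over the mice left out. For pairs of members the range was 0 to 2 and for marker lists 1 to 5, with 0 on deviations from diet means. Leaving out 1 mouse turned the sign in 23 of 720 values of single genes, and 9 other settings in 9 of 306. None of these was called. By the treatment label Slc5a8 was at 0.09 at 5% RPS, Hcar2 at 0.12 at 2% RPS and the Slc16a7 slope at -0.02. Without the 3 mice whose labels disagree, Slc5a8 was at 0.01 and Hcar2 at 0.03. In libraries thinned to the smallest total Slc16a7 at 5% RPS was at 0.04 and Ffar3 at 2% RPS at -0.03. With Dbp Slc16a7 was at -0.04 at 10% RPS, and its slope at -0.03. With a mouse left out the values that turned sign ranged at 10% RPS from -0.04 to 0.09 (Slc16a7) and -0.15 to 0.11 (Ffar3). At 5% RPS they ranged from -0.03 to 0.21 (Slc16a3), -0.07 to 0.06 (Slc16a7), -0.07 to 0.06 (Slc5a8), -0.11 to 0.48 (Ffar2) and -0.14 to 0.37 (Hcar2), and at 2% RPS from -0.11 to 0.31 (Ffar3) and -0.21 to 0.03 (Hcar2). Slopes ranged from -0.03 to 0.06 (Slc16a7) and -0.13 to 0.06 (Ffar3). The cause was not tested.

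Over all genes, DESeq2 called 211, 29 and 1 at 10, 5 and 2% RPS, 973 in the trend and 353 for any diet difference, where edgeR called 7, 0, 0, 375 and 13. By the treatment label edgeR called 0 in each, and without the 3 mice 0 except 56 in the trend. RLE scaling gave 13 at 10% RPS and 8 for any diet difference, thinning 12 at 10%, Dbp 15 at 10%, adjusted p alone 12 at 10%, and a fit of only the 2 diets 3 at 10% and 1 at 5% RPS. Without RS10_727 there were 188 at 10% RPS, 1148 in the trend and 42 for any diet difference. At 10% RPS there were 109 without RS10_703, 59 without RS10_704, 36 without RS10_721 and 11 without RS10_715, RS10_719 or RS10_724. The trend had 24 without RS10_784 and 109 without RS10_708. With 5 mice a diet, changes in the receptors under 1.5-fold, and some above it, could not be told from the spread between mice. The intervals of the receptors in edgeR reached up to 2.03-fold for Ffar2, 1.86-fold for Ffar3 and 1.96-fold for Hcar2. The lowest bound was 0.583-fold, for Hcar2, and these intervals were not adjusted for the number of genes.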
